A study of Rattus norvegicus with 4 samples.

Results

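The genes described here are 34 enzymes and regulators of cholesterol and fatty acid synthesis, taken by name from a list. They were kept when their counts over the 4 libraries came to at least 40. All 34 named genes met that minimum, out of 12228 that did so among 34034 genes listed. The one with fewest counts, Mvd, had 262 in all, so no member lay near the minimum.

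The cells were rat mesenchymal stem cells labelled as taken from femurs, all held in osteogenic induction medium and harvested on day 1 after 24 h with compound or vehicle. Each of 4 groups had 1 library, and all were labelled as 1 batch. Young and senescent cells kept in vehicle are called the young control and the senescent control. The remaining groups were senescent cells given either TSA alone (trichostatin A, which inhibits histone deacetylases) or TSA together with phenamil, a derivative of the diuretic amiloride. The series' title names the phenamil salt as the methanesulfonate, whereas its design text gives benzyl ether as the partner of TSA. The labels of the samples were followed. Their titles word the treatments as "TSA extracs treat" and "TSA and phenamil extracs treat". The sources used here give neither doses nor the way in which cells became senescent, and no library had phenamil without TSA or young cells with a compound.

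Cholesterol is built from acetyl-CoA through mevalonate, isoprenoid units, squalene and lanosterol. Fatty acids are built from the same acetyl-CoA by carboxylation, chain assembly, desaturation and elongation. Transcription of many of these genes depends on the SREBP factors (Srebf1 and Srebf2), which the escort protein Scap carries out of the endoplasmic reticulum when sterols are low, and which the Insig proteins hold back when sterols are plentiful. Proliferating stromal cells use both routes to make membranes.

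Levels are given in CPM, the count per 1000000 of a library size corrected for composition. Libraries were made with a kit that reads the 3′ ends of transcripts, so a level counts tags and is not divided by gene length. No level is compared between genes. A ratio is the scaled count of 1 library over that of another, followed in parentheses by its 95% exact counting interval. A gene was called higher or lower when the higher library exceeded the lower by more than 25% and that interval left out 1. Because each condition had a single library, no difference had a replicate check and no p-value exists for any of them. Each result therefore describes a pair of libraries, and in such bulk samples fewer cells of a type and less RNA per cell cannot be told apart.

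Total counts lay between 9873894 and 11024227. Messenger RNAs of the mitochondrial genome took from 5.47% of counts (young control) to 6.85% (TSA + phenamil). All 11 stromal markers checked (among them Thy1, Cd44, Pdgfra and Col1a1) were detected in every library, with a summed level between 43909 and 55268 CPM. Most of that sum was Col1a1, at 26746 to 33592 CPM. Eng, at 1.62 to 2.19 CPM, and Vcam1, at 0.858 to 2.22 CPM, had few counts. Of 6 osteoblast markers, Sp7 and Ibsp had no count in any library, which allows up to 0.270 to 0.303 CPM (3 counts). The list summed to between 16.4 and 21.6 CPM, nearly all of it from Alpl, at 16.0 to 21.6 CPM. Of 9 markers of fat cells, which make lipid themselves, Cidec and Lep had no count in any library, and the summed level of the list was 26.0 CPM in the young control and 19.2 to 19.9 CPM in the other libraries. Of 8 macrophage and blood markers, Adgre1, Itgam and Lyz2 had no count, and the summed level was 5.22 CPM in the young control, 6.26 CPM in the senescent control, 10.4 CPM with TSA and 10.3 CPM with both compounds. The 6 endothelial markers summed to at most 0.404 CPM. Of 4 hepatocyte markers, Cyp7a1 had no count, and the summed level was 0.540 and 0.817 CPM in the young and senescent controls and 4.14 and 4.38 CPM with TSA and with both compounds. Whether these low levels have a part in the results was not tested.

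For 17 of the 34 genes, among them Acat2, Idi1, Insig1 and Scd, the senescent control and the TSA library were both above the young control and the TSA + phenamil library. For 1, the elongase gene Elovl5, both were below. Among all 12228 genes the same orders held for 21.0% and 20.0%. The young control was the lowest of the 4 libraries for 20 members (58.8%, against 28.7% of all genes), and the TSA + phenamil library was the lowest for 11 (32.4%, against 22.5%). The TSA library was the highest for 13 members (38.2%, against 28.5% of all genes) and the senescent control for 12 (35.3%, against 21.5%). Together the 34 genes took 0.175% of counts in the young control (95% Wilson interval 0.173% to 0.177%), 0.196% (0.193% to 0.198%) in the senescent control, 0.197% (0.194% to 0.199%) with TSA and 0.172% (0.169% to 0.174%) with both compounds. Intervals throughout cover counting error only. The plot of levels by library shows these positions gene by gene.

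**Figure D1:**
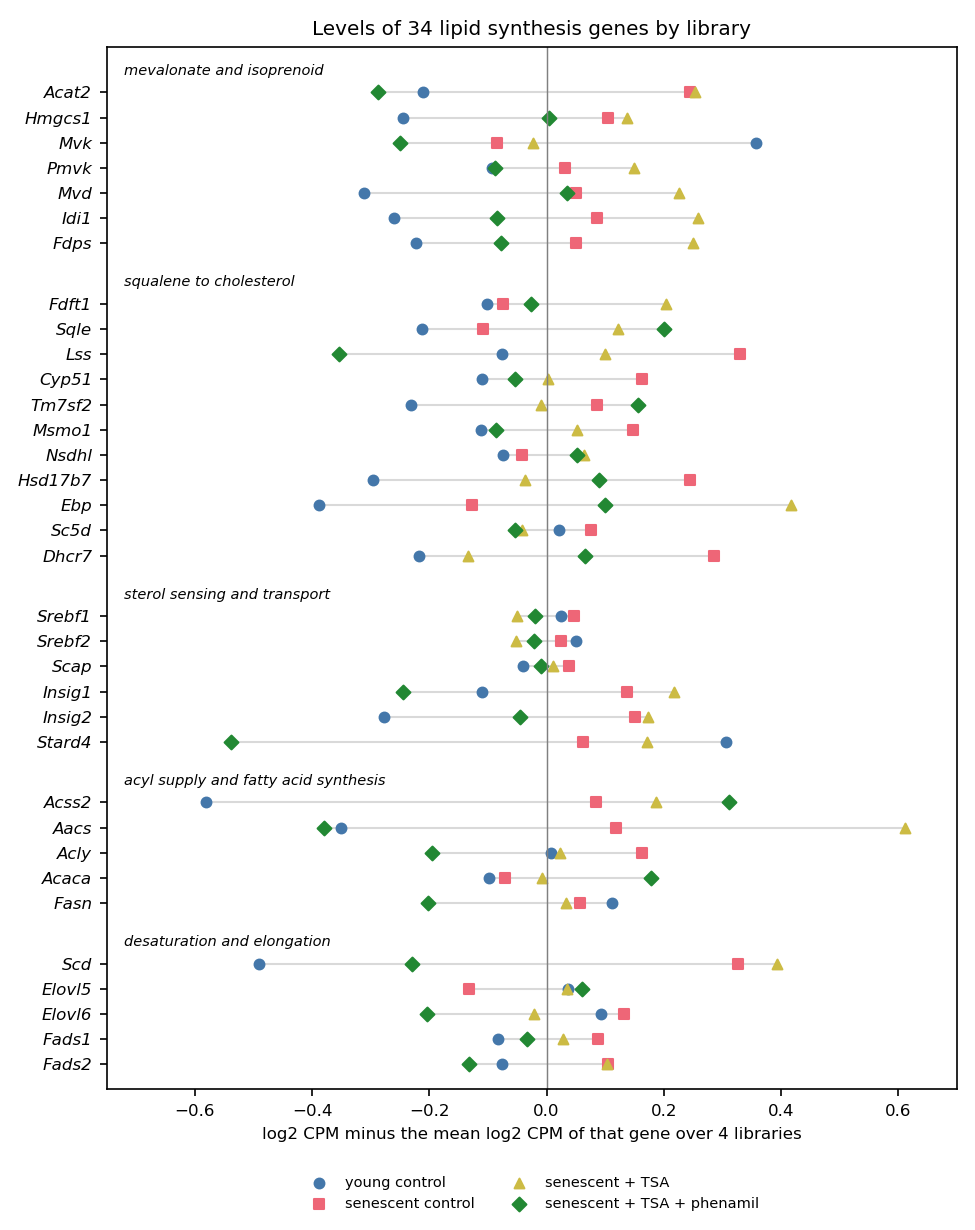
Level of each of the 34 genes in each of the 4 libraries, as log2 CPM minus that gene's own mean log2 CPM over the libraries, with genes in rows grouped by role and 1 point per library. The young control is the leftmost point in 20 rows, and the senescent control and TSA points both lie to the right of the other pair in 17 rows.

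The first comparison, of senescent with young cells given vehicle, asks how the cells differ before any compound. Here 10 of 34 members (29.4%) were called higher in the senescent control and 1 (2.94%) lower, while 9.63% and 9.27% of all genes compared were called in those directions. The ratio was above 1 for 29 members. The median log2 ratio of the members was 0.213, and that of all genes was 0.008. Called higher were Scd, Acss2, Hsd17b7, Dhcr7, Aacs, Acat2, Insig2, Lss, Hmgcs1 and Idi1, and called lower was Mvk. Of these, 5 rested on few counts: Acss2, Hsd17b7, Aacs, Dhcr7 and Insig2 had 72 to 141 counts in the young control.

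In the TSA library most members stood close to their level in the senescent control. Here 2 members (5.88%) were called higher, Ebp and Aacs, and 1 (2.94%) lower, Dhcr7, against 8.22% and 7.97% of all genes. These shares rest on few genes and lay near or below the background. Of all 12228 genes, 10248 were likewise called in neither direction. The median log2 ratio was 0.028, beside 0.001 for all genes, and 19 ratios were above 1 and 15 below. The summed level of the 34 genes with TSA was 1.003 (0.984 to 1.02) times that of the senescent control.

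With both compounds, 8 of 34 members (23.5%) were called lower than in the senescent control and 0 higher, where 8.22% of all genes were called lower and 8.58% higher. The 8 were Acat2, Lss, Insig1, Stard4, Aacs, Acly, Scd and Elovl6. The ratio was below 1 for 26 members, and the median log2 ratio was -0.142 beside 0.000 for all genes. Against the TSA library, the pair that differs by phenamil, 8 members (23.5%) were again called lower and 0 higher, with 9.30% and 9.93% of all genes called in those directions. They were Acat2, Idi1, Fdps, Lss, Insig1, Stard4, Aacs and Scd, and the median log2 ratio was -0.185 beside -0.001 for all genes. The TSA + phenamil library enters both of these comparisons, and the senescent control enters 3 of the 4, so the counts are not separate pieces of evidence.

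**Figure D2:**
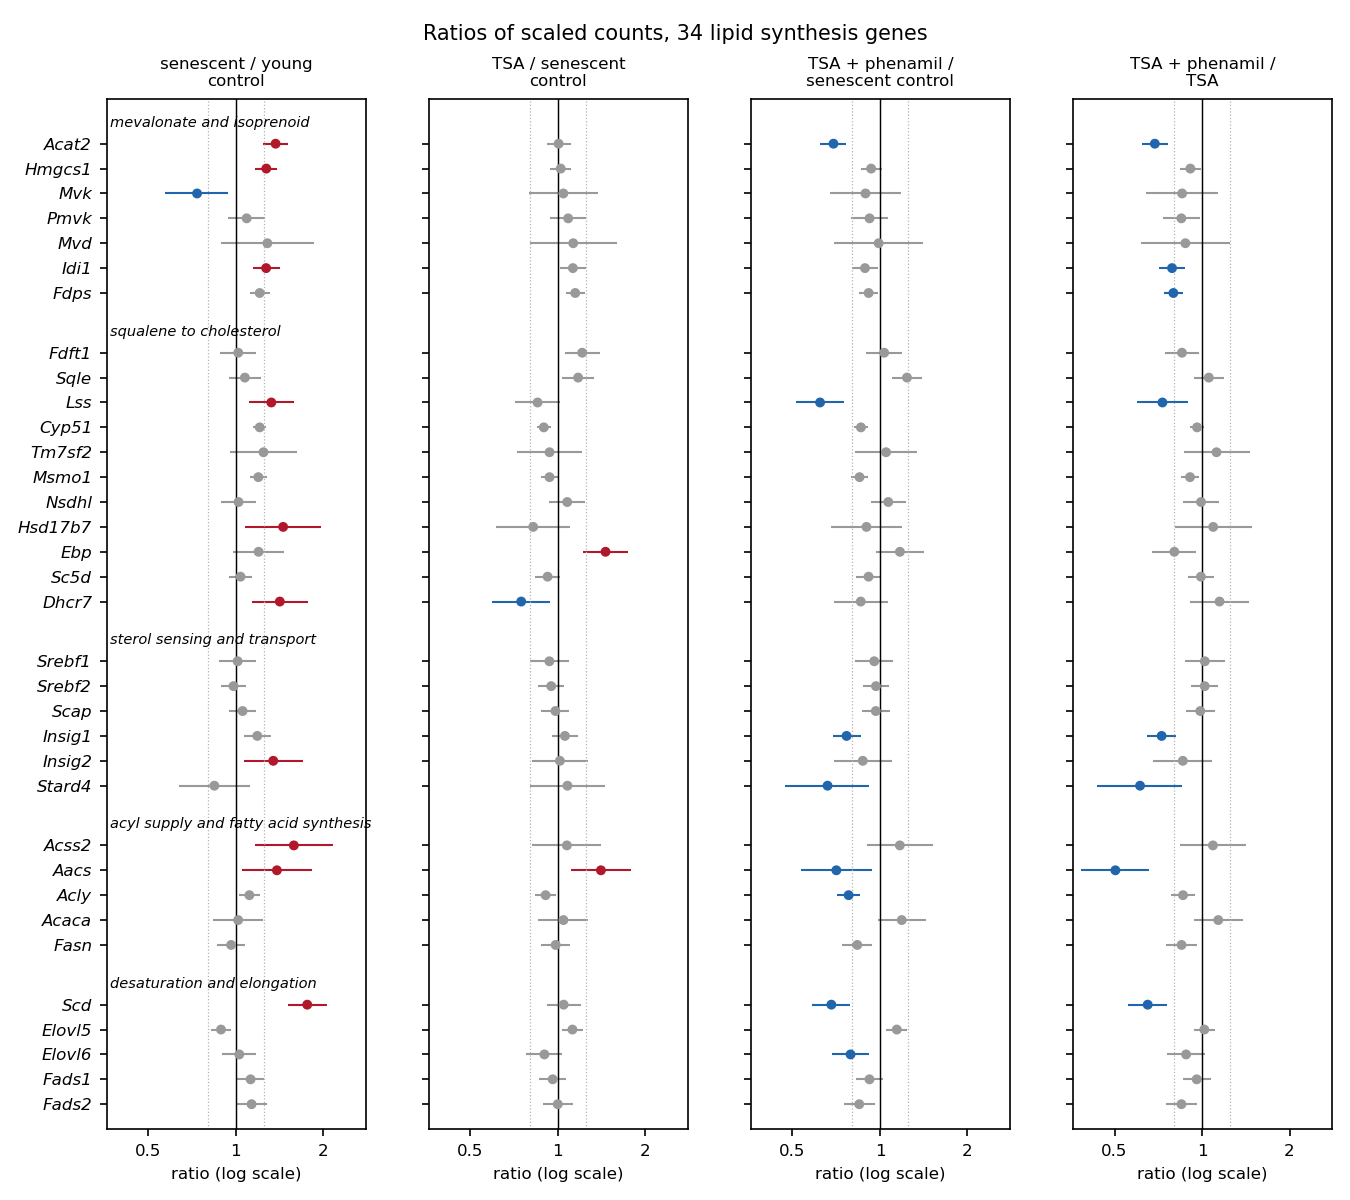
Ratio of scaled counts on a log axis for each of the 34 genes in the 4 comparisons, with 95% exact counting intervals as lines. Red points are genes called higher, blue points genes called lower, and dotted lines mark a difference of 25%. The leftmost panel holds 10 red points and 1 blue point, and each of the 2 panels on the right holds 8 blue points and no red point.

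**Figure D3:**
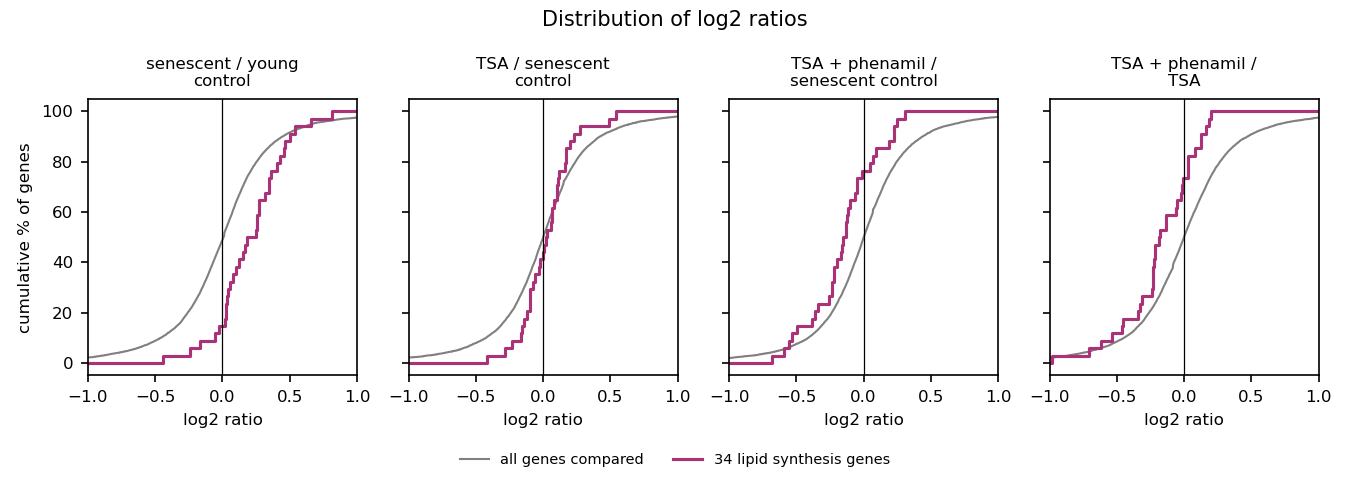
Cumulative share of genes against log2 ratio in the 4 comparisons, for all 12228 genes compared (grey) and for the 34 members (purple). The members' curve lies to the right of the grey curve around 0 in senescent over young control (median 0.213), near it for TSA over senescent control (0.028), and to its left in the comparisons with TSA + phenamil on top (-0.142 and -0.185).

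The senescent over young pair and the TSA + phenamil over TSA pair have no library in common. Of the 34 members, 22 (64.7%) had a ratio above 1 in the former and below 1 in the latter, and 2 (5.88%), Elovl5 and Srebf2, had the opposite. Over all genes these orders were found for 30.4% and 29.2%. Aacs, Acat2, Idi1, Lss and Scd, which is 5 of 34 (14.7%), were called higher in the former and lower in the latter, against 2.31% of all genes. No member was called lower and then higher, against 2.04% of all genes. Members above 1 in both pairs were Acaca, Acss2, Dhcr7, Hsd17b7, Sqle, Srebf1 and Tm7sf2, and those below 1 in both were Fasn, Mvk and Stard4.

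The stretches upstream of those 5 genes are shown because they are the members called in opposite directions in the 2 separate pairs. Hmgcs1, an early enzyme of the pathway, and Insig1, its feedback regulator, are added. Each is the 250 bases before the annotated start, 5′ to 3′ on the strand of the gene, from RefSeq on build GRCr8, with capitals marking CCAAT in either direction. That pentamer is bound by NF-Y, a factor that works beside SREBP at many sterol genes.
Acat2, chr1:50100590-50100839, plus strand: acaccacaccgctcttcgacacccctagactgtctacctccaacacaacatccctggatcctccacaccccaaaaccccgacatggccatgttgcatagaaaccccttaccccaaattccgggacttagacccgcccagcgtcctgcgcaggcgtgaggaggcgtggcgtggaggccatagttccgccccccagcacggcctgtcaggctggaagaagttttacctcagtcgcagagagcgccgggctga
Idi1, chr17:66547525-66547774, minus strand: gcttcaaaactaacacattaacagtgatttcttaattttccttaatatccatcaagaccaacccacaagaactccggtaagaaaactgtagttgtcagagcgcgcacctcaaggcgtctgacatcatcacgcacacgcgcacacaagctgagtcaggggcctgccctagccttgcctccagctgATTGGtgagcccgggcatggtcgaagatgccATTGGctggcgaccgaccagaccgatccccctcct
Lss, chr20:12118231-12118480, minus strand: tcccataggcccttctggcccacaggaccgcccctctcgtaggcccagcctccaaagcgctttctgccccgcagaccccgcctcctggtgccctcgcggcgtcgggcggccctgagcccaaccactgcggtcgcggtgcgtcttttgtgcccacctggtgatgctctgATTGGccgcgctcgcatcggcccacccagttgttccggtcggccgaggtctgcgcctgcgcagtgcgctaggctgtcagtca
Aacs, chr12:36817775-36818024, minus strand: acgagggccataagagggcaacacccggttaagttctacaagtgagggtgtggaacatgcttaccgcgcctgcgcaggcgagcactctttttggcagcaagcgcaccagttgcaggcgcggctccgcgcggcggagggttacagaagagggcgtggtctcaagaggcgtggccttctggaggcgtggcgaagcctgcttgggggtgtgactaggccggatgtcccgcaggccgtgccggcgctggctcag
Scd, chr1:253231732-253231981, minus strand: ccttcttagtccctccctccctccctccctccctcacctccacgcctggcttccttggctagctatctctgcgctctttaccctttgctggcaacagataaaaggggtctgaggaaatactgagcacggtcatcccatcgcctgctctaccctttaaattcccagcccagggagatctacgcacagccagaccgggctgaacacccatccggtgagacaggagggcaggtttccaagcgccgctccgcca
Hmgcs1, chr2:53382054-53382303, plus strand: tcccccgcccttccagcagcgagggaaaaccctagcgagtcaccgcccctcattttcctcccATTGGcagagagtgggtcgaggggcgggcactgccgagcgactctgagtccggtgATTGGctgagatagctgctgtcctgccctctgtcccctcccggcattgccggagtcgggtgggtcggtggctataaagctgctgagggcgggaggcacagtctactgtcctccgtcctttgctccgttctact
Insig1, chr4:8057770-8058019, minus strand: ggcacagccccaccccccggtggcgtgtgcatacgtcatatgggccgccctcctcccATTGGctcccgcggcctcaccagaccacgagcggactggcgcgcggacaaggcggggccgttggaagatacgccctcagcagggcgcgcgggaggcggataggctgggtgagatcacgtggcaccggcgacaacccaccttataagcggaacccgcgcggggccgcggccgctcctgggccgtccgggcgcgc

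Of the 34 members, 27 were matched by gene identifier to a promoter window in the RefSeq table, in 28 windows of 300 bases (250 before and 50 after the start). CCAAT was found on either strand in 21 of the 28 windows (75.0%), belonging to 20 genes, and in 37.5% of all 33469 windows of the table. Among windows of genes with at least 40 counts the share was also 37.5%. CACGTG, an E-box, was found in 4 member windows (14.3%), those of Elovl5, Insig1, Sc5d and Scap, in 6.42% of all windows and in 9.22% of windows of genes with at least 40 counts. The sterol element was searched on both strands as TCACNCCAC, and also in a stricter spelling with a C in the open position and an A in front, each match of which also matches the shorter one. Neither was in any of the 28 member windows. The shorter spelling was in 1.12% of all windows (1.09% for genes with at least 40 counts) and the stricter one in 0.1255% (0 of 11315 windows for those genes). These are letters in a window and not sites, and the authors' counts were made on another build. Among the 5 genes called in opposite directions, Idi1 had 2 CCAAT matches and Lss had 1 in the printed stretch, and Aacs, Acat2 and Scd had none there. Hmgcs1 had 2 and Insig1 had 1. The genes not matched were Acaca, Elovl6, Fasn, Fdft1, Pmvk, Sqle and Stard4.

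The 7 genes of the mevalonate and isoprenoid steps turn acetyl-CoA into farnesyl diphosphate. Their summed level was 359 CPM in the young control, 443 CPM in the senescent control, 478 CPM with TSA and 387 CPM with both compounds. The sum with both compounds was 0.809 (0.776 to 0.844) times that with TSA, and the sum in the senescent control was 1.23 (1.18 to 1.29) times that in the young control. All 7 were below their TSA level with both compounds, and 6 of the 7 had their highest level with TSA.

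Acat2, the cytosolic thiolase that joins acetyl-CoA units at the head of the route, stood at 61.8 CPM in the young control, 84.7 CPM in the senescent control, 85.2 CPM with TSA and 58.6 CPM with both compounds. The libraries thus fell into a high pair and a low pair with little between them. Its ratio was 1.37 (1.24 to 1.51) in senescent over young, 0.692 (0.624 to 0.767) for both compounds over the senescent control, and 0.688 (0.619 to 0.764) over TSA. Hmgcs1, which makes HMG-CoA, was at 84.2, 107, 109.6 and 99.9 CPM in the same order of libraries. It was called higher in senescent over young at 1.27 (1.17 to 1.39), and its ratio for both compounds over TSA was 0.912 (0.837 to 0.993), a difference of under 25%.

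Mvk, the mevalonate kinase, went the other way, with 13.9 CPM in the young control and 10.3, 10.7 and 9.15 CPM in the senescent libraries. Its senescent over young ratio was 0.736 (0.572 to 0.944), from 155 and 113 counts. The kinase that follows it, Pmvk, was at 32.6, 35.5, 38.5 and 32.7 CPM and was called in none of the 4 comparisons. The decarboxylase gene Mvd had few counts (55, 70, 71 and 66), and its intervals in all 4 comparisons took in 1.

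Idi1, the isomerase that readies isoprenoid units for joining, was at 54.7 CPM in the young control, 69.5 CPM in the senescent control, 78.3 CPM with TSA and 61.7 CPM with both compounds. Fdps, which joins these units to farnesyl diphosphate, ran in parallel at 107, 129, 149 and 118 CPM. For both genes TSA gave the highest and young cells the lowest level. With both compounds Idi1 was at 0.788 (0.709 to 0.876) and Fdps at 0.797 (0.738 to 0.860) of the TSA level. In senescent over young the ratio of Idi1 was 1.27 (1.14 to 1.42), called higher, and that of Fdps 1.21 (1.12 to 1.31), short of the fold used.

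The 11 genes from squalene to cholesterol summed to 635 CPM in the young control, 741 CPM in the senescent control, 710.2 CPM with TSA and 673 CPM with both compounds. In senescent over young all 11 ratios were above 1, with 3 called higher and a median log2 ratio of 0.260. With both compounds over TSA 1 of 11 was called lower and the median was -0.013, so that the difference seen in the mevalonate steps (-0.236) had no counterpart of that size in this group. This difference between the groups has no test.

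Lss, the cyclase that forms lanosterol, was at 20.7 CPM in the young control, 27.4 CPM in the senescent control, 23.3 CPM with TSA and 17.1 CPM with both compounds. The senescent control was the highest library and the one with both compounds the lowest. Its ratio was 1.33 (1.11 to 1.58) in senescent over young, 0.622 (0.514 to 0.751) for both compounds over the senescent control, and 0.731 (0.598 to 0.892) over TSA.

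The genes of squalene formation and oxidation, Fdft1 and Sqle, were ordered otherwise. Fdft1, the squalene synthase, was at 36.0, 36.7, 44.5 and 37.9 CPM, with TSA alone standing above the rest at 1.21 (1.06 to 1.39) times the senescent control. Sqle, the epoxidase that commits squalene to sterols, was at 41.7, 44.8, 52.6 and 55.5 CPM and so was highest in the library with both compounds. Its ratio over the senescent control was 1.24 (1.10 to 1.40) there, just within the fold used, and over the young control it was 1.33 (1.18 to 1.51).

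Cyp51 and Msmo1, which remove methyl groups from lanosterol, had the most counts of this group. Cyp51 was at 224, 271, 243 and 233 CPM, and Msmo1 at 153, 183, 172 and 156 CPM, in the order young control, senescent control, TSA, both compounds. Both were highest in the senescent control and lowest in the young control, by 1.21 (1.15 to 1.28) and 1.20 (1.12 to 1.28) times. With both compounds they were at 0.860 (0.815 to 0.907) and 0.851 (0.796 to 0.908) of the senescent control. Narrow as these intervals are, all of these ratios were differences of under 25%, and neither gene was called.

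The later steps of the route differed from gene to gene. Dhcr7, the reductase of the last step, was at 12.7, 18.0, 13.4 and 15.4 CPM, with the senescent control highest. It was called higher in senescent over young at 1.42 (1.14 to 1.77) and lower with TSA over the senescent control at 0.748 (0.596 to 0.936). Ebp, the sterol isomerase, was at 16.4, 19.6, 28.6 and 23.0 CPM and was called higher with TSA over the senescent control at 1.46 (1.22 to 1.75). Hsd17b7, a sterol ketoreductase, was at 6.92 CPM in young and 10.1 CPM in senescent control cells, a ratio of 1.46 (1.08 to 1.97) from 77 and 111 counts. Nsdhl, Sc5d and Tm7sf2 were called in none of the 4 comparisons, and their highest level was 1.10, 1.09 and 1.31 times their lowest.

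**Figure D4:**
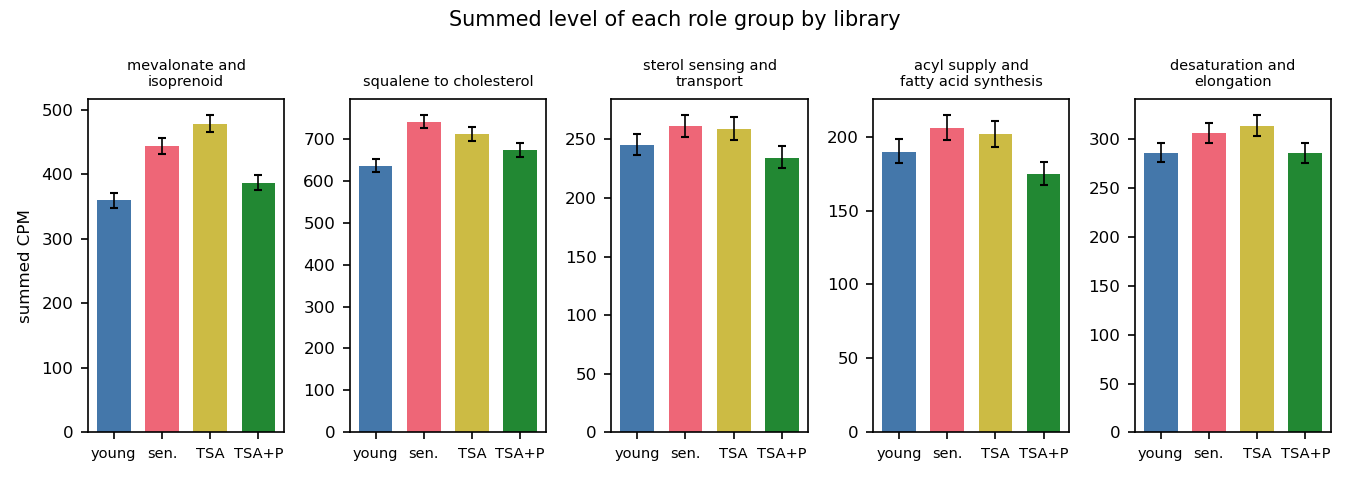
Summed CPM of the members of each role group in the young control (young), senescent control (sen.), TSA and TSA + phenamil (TSA+P) libraries, as bars from 0 with 95% exact Poisson intervals for counting error. The mevalonate and isoprenoid sum runs from 359 CPM in the young control to 478 CPM with TSA, and the sum of the sterol sensing group stays between 234 and 261 CPM.

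The genes that sense sterols fell into a flat set and a varying set. The factor genes Srebf1 and Srebf2 and the escort gene Scap were called in none of the 4 comparisons. Srebf1 was at 32.9, 33.4, 31.2 and 31.9 CPM, Srebf2 at 73.1, 71.8, 68.1 and 69.6 CPM, and Scap at 59.35, 62.6, 61.4 and 60.6 CPM. The highest library was 1.07 times the lowest for both factors and 1.06 times for Scap. SREBP activity is set by cleavage of the protein, which counts of messenger RNA do not measure.

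Insig1, which retains Scap in the endoplasmic reticulum and is itself an SREBP target, was at 58.1 CPM in the young control, 68.9 CPM in the senescent control, 72.9 CPM with TSA and 52.9 CPM with both compounds. The last of these was the lowest library. It was called lower there, at 0.768 (0.687 to 0.857) of the senescent control and 0.726 (0.649 to 0.812) of TSA, and its senescent over young ratio of 1.19 (1.07 to 1.32) was short of the fold used. Its paralog Insig2 was at 11.6, 15.6, 15.9 and 13.6 CPM. Insig2 was called higher in senescent over young at 1.35 (1.06 to 1.70) and was called in none of the other 3 comparisons, with 0.859 (0.680 to 1.08) for both compounds over TSA, an interval that includes the ratio of Insig1.

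Stard4 encodes a soluble carrier of cholesterol between membranes. It was at 10.4 CPM in the young control, 8.80 CPM in the senescent control, 9.50 CPM with TSA and 5.81 CPM with both compounds, from 116, 97, 94 and 61 counts. The library with both compounds stood apart below the rest, with ratios of 0.660 (0.471 to 0.919) to the senescent control, 0.612 (0.436 to 0.853) to TSA and 0.557 (0.402 to 0.766) to the young control. Unlike most members it was lower, at 0.844 (0.638 to 1.11), and not higher in senescent over young, with an interval that took in 1.

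The 5 genes of acyl supply and fatty acid synthesis summed to 189.8 CPM in the young control, 206 CPM in the senescent control, 201 CPM with TSA and 175 CPM with both compounds. Aacs, which activates the ketone body acetoacetate for lipid synthesis, was the only member called in all 4 comparisons. Its counts were 94, 129, 163 and 87, or 8.45, 11.7, 16.5 and 8.29 CPM. The ratio was 1.39 (1.05 to 1.83) in senescent over young, 1.41 (1.11 to 1.79) for TSA over the senescent control and 0.708 (0.533 to 0.936) for both compounds over it. At 0.503 (0.383 to 0.657), the ratio of both compounds to TSA was the lowest of any member in the 4 comparisons.

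Acss2, which makes acetyl-CoA from acetate in the cytosol and nucleus, was at 6.47, 10.3, 11.0 and 12.0 CPM. All 3 senescent libraries were above the young control, with ratios of 1.58 (1.17 to 2.16) without compound, 1.70 with TSA and 1.85 (1.38 to 2.51) with both compounds, from 72 counts in the young control. It was not lower with both compounds, where the ratio to TSA was 1.09 (0.837 to 1.42). Acly, which makes acetyl-CoA from citrate, was at 96.5, 107, 97.5 and 83.8 CPM and was called lower with both compounds over the senescent control at 0.780 (0.714 to 0.852).

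The core enzymes of fatty acid assembly were called in none of the 4 comparisons. Fasn, the synthase, was at 59.5, 57.4, 56.4 and 47.9 CPM, and with both compounds it was at 0.835 (0.742 to 0.941) of the senescent control. Acaca, the acetyl-CoA carboxylase, was at 18.9, 19.2, 20.1 and 22.9 CPM, so that its highest library was the lowest one of Fasn.

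Scd, a stearoyl-CoA desaturase that makes monounsaturated fatty acids, had the largest called ratio of any member in senescent over young. It was at 23.3 CPM in the young control, 41.0 CPM in the senescent control, 42.9 CPM with TSA and 27.9 CPM with both compounds, from 259, 452, 425 and 293 counts. As for Acat2, a high pair and a low pair can be seen. The ratio was 1.76 (1.51 to 2.06) in senescent over young, 0.680 (0.585 to 0.790) for both compounds over the senescent control and 0.650 (0.558 to 0.756) over TSA. Rats have other Scd genes of similar sequence, and how reads that fit more than 1 of them were counted is not given in the sources used here.

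The elongases and the desaturases of polyunsaturated chains differed less. Elovl6, which lengthens saturated chains, was at 38.5, 39.6, 35.6 and 31.3 CPM and was called lower with both compounds over the senescent control at 0.792 (0.684 to 0.916). Elovl5, which lengthens polyunsaturated chains, was at 115, 102, 115 and 117 CPM and had its lowest level in the senescent control, where it was 0.890 (0.820 to 0.964) of young. Fads1 was at 61.5, 69.2, 66.4 and 63.6 CPM and Fads2 at 47.7, 54.0, 54.0 and 45.8 CPM. Neither of these desaturase genes was called in the 4 comparisons.

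Set against the young control, 12 members (35.3%) were called higher with TSA and 1 (2.94%) lower, where 13.5% and 13.7% of all genes were called. With both compounds 4 members (11.8%) were called higher, namely Acss2, Ebp, Sqle and Tm7sf2, and 2 (5.88%) lower, namely Mvk and Stard4, against 8.69% and 8.21% of all genes. The summed level of the 34 genes with both compounds was 1.02 (1.002 to 1.04) times that of the young control, and with TSA it was 1.14 (1.12 to 1.17) times. These comparisons use the same young control as the first one.

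Genes of the wider pathway, in 6 lists of 76 genes chosen by function, gave 66 with enough counts. In senescent over young 10 of the 66 (15.2%) were called higher and 1 (1.52%) lower, and with both compounds over the senescent control 6 (9.09%) were called higher and 12 (18.2%) lower. The 66 include 11 genes of fatty acid oxidation, a breakdown route. These gave 4 of the 6 called higher and 0 of the 12 called lower with both compounds, and 2 of the 10 called higher in senescent over young. For TSA over the senescent control 2 (3.03%) were called higher and 1 (1.52%) lower, against 8.22% and 7.97% of all genes. For both compounds over TSA 2 (3.03%) were called higher and 4 (6.06%) lower, against 9.93% and 9.30%. The other background shares are those given above for each comparison.

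Among 8 genes of SREBP processing, Mbtps2, a protease that cuts SREBP, was called higher in senescent over young at 1.69 (1.29 to 2.22), with 7.91 CPM in young and 13.3 CPM in senescent cells. Erlin1 at 0.795 (0.681 to 0.927), whose product takes part in sterol-dependent control at the endoplasmic reticulum, was called lower with both compounds over the senescent control. Among 14 other genes of mevalonate use and sterol synthesis, 3 were called higher and 0 lower in senescent over young, and 1 higher and 2 lower with both compounds over the senescent control. The farnesyltransferase subunit gene Fntb was at 1.70 (1.10 to 2.66) in senescent over young and at 0.569 (0.358 to 0.890) with both compounds over the senescent control. Pggt1b, a subunit of an enzyme that attaches isoprenoid chains to proteins, was called higher than the senescent control with TSA at 1.57 (1.15 to 2.17) and with both compounds at 1.59 (1.16 to 2.18).

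Of 11 genes of sterol uptake and trafficking, 0 were called higher and 1 lower in senescent over young, and 0 in either direction for TSA over the senescent control. With both compounds 1 was called higher and 2 lower than in the senescent control, and 2 higher and 1 lower than with TSA. The calls with higher levels were Gramd1b in both comparisons and Vldlr over TSA (named after their values were seen). Scarb1, a lipoprotein receptor, was at 0.614 (0.404 to 0.924) with both compounds over TSA, and Npc1, which exports cholesterol from lysosomes, at 0.724 (0.570 to 0.916) over the senescent control. Gramd1a, another cholesterol carrier, was called lower in senescent over young at 0.710 (0.562 to 0.895). Of the 5 measured genes of sterol efflux and the LXR receptors, the receptor gene Nr1h2 at 0.789 (0.661 to 0.940) and Lpcat3 at 0.793 (0.691 to 0.910), an enzyme of phospholipid remodelling, were called lower with both compounds over the senescent control.

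Among 17 measured genes of other fatty acid synthesis steps, 4 were called higher in senescent over young and 0 lower. With both compounds over the senescent control 4 were called lower and 0 higher. Scd2, a second stearoyl-CoA desaturase, was at 152.7, 192, 168 and 145 CPM, with 1.26 (1.18 to 1.34) in senescent over young and 0.752 (0.703 to 0.803) with both compounds over the senescent control. The glycerol phosphate acyltransferase gene Gpam was at 1.38 (1.08 to 1.75) in senescent over young and at 0.711 (0.554 to 0.911) with TSA over the senescent control. Elovl1, which makes very long chains, was at 0.747 (0.678 to 0.823) with both compounds over the senescent control.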

How the data were processed

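Per the labels' protocols, 3′ libraries (QuantSeq FWD) of 4 RNA samples, 1 per condition, were read on a NextSeq instrument. STAR 2.7.10b, HTSeq 2.0.2 and build mRatBN7.2 appear in the submitters' processing notes. For annotation, strand setting and duplicates the sources used here say nothing. The deposited table holds raw counts per gene, per the file headers. A second deposited table holds normalized log2 values, per the file headers, which equalled log2 of CPM plus 1 as computed here within 0.00533.

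TMM factors over all genes (edgeR 4.0.16, R 4.3.3) set the library sizes. With 1 library per condition there is no residual spread, so the quasi-likelihood test was left out. Ratios got exact conditional binomial (Clopper-Pearson) intervals, and log2 ratios a prior count of 0.5 (Python 3.11.15, numpy 2.4.6, pandas 2.3.3, scipy 1.17.1, matplotlib 3.10.9). Genes with at least 40 counts were compared. On counts simulated without biological spread for senescent over young (12228 genes), 95.7% of intervals held the true ratio, 96.5% of 200 genes changed 2-fold were called, and 2.11% of unchanged genes were called. Promoter windows came from RefSeq on GRCr8, matched by gene identifier.

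Members, lists and rules were chosen with earlier results of these data known. Any member could be named, with full values for those called. Pathway genes named were up to 3 per list with at least 100 counts and the largest called ratio, of which 1 is not reported here. Alternatives were size factors of DESeq2 1.42.0, scaling to total counts, other thresholds, and the deposited log2 values.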

Additional observations from a re-analysis of the deposited data

How the results depend on the processing

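Results were recomputed with DESeq2 size factors, total counts, count minimums of 200 and of 1, a prior count of 2, the deposited log2 values, and other call rules. Over these scalings and sources the members' median log2 ratio ran from 0.184 to 0.213 in senescent over young, 0.021 to 0.032 for TSA over senescent control, -0.171 to -0.135 for both compounds over senescent control, and -0.219 to -0.165 for both compounds over TSA. The values 0.184, 0.032, -0.171 and -0.219 came from total counts. With that scaling the median of all genes moved too, to -0.021, 0.005, -0.029 and -0.035 in the same order. Among the alternatives run, counts of members called moved by more than 1.5 times under 2 call rules. At 1.5-fold, 2 members (Scd and Acss2) were higher and 0 lower in senescent over young, 0 and 0 for TSA over senescent control, 2 (Lss and Stard4) lower for both compounds over senescent control, and 3 (Aacs, Scd and Stard4) lower for both compounds over TSA. At that fold 4.56% of all genes were higher and 4.85% lower in senescent over young, and 3.97% and 3.73% for TSA over senescent control. For both compounds the shares higher and lower were 4.11% and 3.53% over senescent control, and 4.90% and 4.12% over TSA. The 2 members higher in senescent over young and the 2 lower for both compounds over senescent control (5.88% each) were near the background. All of these counts, with the 3 lower over TSA, rest on few genes. With the interval alone and no fold, the counts were 17 higher and 2 lower, 7 higher and 4 lower, 2 higher and 14 lower, and 16 lower, in that order of comparisons. Under that rule 18.4% of all genes were higher and 16.5% lower in senescent over young, and 16.0% and 14.5% for TSA over senescent control. For both compounds the shares higher and lower were 15.9% and 15.8% over senescent control, and 16.4% and 17.4% over TSA. Of 30 calls of single members, Hmgcs1 (log2 ratio 0.320) and Idi1 (0.317) in senescent over young fell short of a 25% difference with total counts, and Fdps (-0.32) for both compounds over TSA did so with the deposited log2 values. No call changed direction with DESeq2 size factors, total counts or the deposited values. No paired analysis was possible because each group holds 1 library. Depth limited the members with fewest counts: the senescent over young interval of Mvd, with 55 and 70 counts, ran from 0.890 to 1.86, so a difference of 25% could not be called there.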

Other observations

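Fatty acid oxidation, the breakdown of the same chains in mitochondria, was described by a list of its own. Of its 14 genes, 11 had enough counts, and with both compounds over the senescent control 4 of the 11 were called higher and 0 lower, where 8.58% and 8.22% of all genes were called. The 4 were Cpt1a, which admits long chains to mitochondria, Acads and Acadm, dehydrogenases of short and medium chains, and the thiolase gene Acaa2 (Acadm, Acaa2 and Acadvl are named after their values were seen). Acads was at 23.0 CPM in the young control, 18.8 CPM in the senescent control, 26.8 CPM with TSA and 27.4 CPM with both compounds. Its ratio to the senescent control was 1.43 (1.18 to 1.72) with TSA and 1.46 (1.22 to 1.75) with both compounds. Cpt1a was at 6.65, 4.99, 6.77 and 7.34 CPM, with 1.47 (1.03 to 2.12) for both compounds over the senescent control. In senescent over young 2 of the 11 were called higher, Acadl at 1.33 (1.12 to 1.59) and Acadvl, and 0 lower. For both compounds over TSA 0 of 11 were called in either direction, and no test could be made with 1 library per condition.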
